A study of Mus musculus with 24 samples.

Results

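The calcitriol response of the duodenum was set against that of the colon by pairing the libraries that carry the same number in both tissues. Of the 24 samples of the series, 16 enter here, 8 duodenal and 8 colonic, which make 8 number-matched pairs. For each pair and each gene the matched difference is log2(FPKM + 1) in the duodenum minus log2(FPKM + 1) in the colon, FPKM being a fragment count scaled to transcript length and library depth. The 4 matched differences of calcitriol-treated mice were then compared with the 4 of vitamin D-deficient mice. A positive contrast (calcitriol minus deficient) means that the difference between treated and deficient mice was the more positive in the duodenum, and a negative contrast that it was the more positive in the colon. The genes tested were the 13115 of 21441 that reached 1 FPKM in at least 3 columns of either tissue's table.

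All mice were wild type on the C57BL6J background. The 3xD group received calcitriol (1,25D3, the hormone form of vitamin D) at 1 ng per g body weight in 3 injections, 48, 24 and 6 h before the end, and the labels of the minusD group give no treatment. Ages were 10 to 14 in a unit that the labels do not give. Replicate 1 of the minusD group is listed at age 12 in the duodenum and 13 in the colon. The listed age of 12 occurs in no deficient colonic sample, so the labels do not match every deficient library across the tissues by age. Each other replicate is listed at the same age in both tissues, but the labels do not tie replicates to the column numbers used for pairing. Libraries are named below by group and column name: calcitriol 1, 3xD5711, 3xD5720 and 3xD5734, and deficient minusD5718, 1, 2 and 3. The columns of deficient 1, 2 and 3 are headed Vehicle and were taken as minusD, since each table compares MinusD with 3xD. Whether the libraries of a group came from separate mice is not stated, so p-values measure the spread between these libraries.

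Calcitriol acts through the vitamin D receptor, a nuclear receptor that pairs with a retinoid X receptor and binds DNA at direct repeats of a short core motif. In the duodenum, where active calcium absorption is best known, the hormone raises the apical calcium channel TRPV6, the cytosolic calcium carrier calbindin-D9k (S100g) and the basolateral calcium pump PMCA1 (Atp2b1). The colon expresses the receptor too, and the same genes respond there. CYP24A1 degrades the hormone and is the standard sign that the receptor has been engaged.

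The libraries differed in ways that coincide with treatment in part, or in full for the reads of the duodenum. Calcitriol 1 and deficient 1, 2 and 3 carry serial numbers, while the other 4 pairs carry numbers of 4 digits, so each naming scheme holds both groups only as 1 against 3. Whole reads recovered from the FPKM steps came to 13917000 to 22204047 in the 4-digit and 25340652 to 28237241 in the serial colonic libraries. In the duodenum they came to 19784148 to 23006395 in the treated and 23604172 to 37484646 in the deficient libraries, so these groups did not overlap. The part of depth in the contrasts was not tested. Xist exceeded Ddx3y in 3 of the 4-digit and 0 of the serial numbers, and both tissues gave the same answer in 8 of 8 numbers. The summed level of 17 stomach markers in the duodenum was 6287 to 12427 FPKM in 4-digit and 43.7 to 226.6 FPKM in serial libraries. Contrasts among serial and among 4-digit numbers alone therefore stand beside most pooled ones, marked serial and 4-digit. The labels fit small intestine against colon: 14 small-intestine genes summed to 15448 FPKM or more in every duodenal library and to at most 1167 in any colonic one. Such a sum cannot tell duodenum from ileum. The 21 colon genes summed to at least 15726 FPKM in the colon and at most 4816 in the duodenum. The tables of the tissues were normalized separately. A constant between them drops out of the contrast but not out of a level set across tissues.

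No gene passed the matched test across all genes. Limma called 0 of 13115 genes at an adjusted p under 0.05 (0% of genes), and the smallest adjusted p was 0.121, for Slc37a2. Voom on recovered reads also called 0. An unadjusted p under 0.05 was reached by 428 genes (3.26%), 219 with a positive contrast (1.67%) and 209 with a negative one (1.59%). Of all tested genes 54.1% had a contrast above 0 and 45.9% below it. The 4 calcitriol and 4 deficient matched differences did not overlap for 255 genes (1.94%), 135 of them higher (1.03%) and 120 lower (0.915%). In 89 of the higher and 78 of the lower ones the groups overlapped in each tissue taken alone. In 28 and 26 the groups were apart in the colon but not in the duodenum, and in 17 and 14 the reverse. Within the tissues, limma called 3 genes in the duodenum (0.0229%) and 0 in the colon. The 3 were Cyp24a1, higher in treated mice, and BC023829 and Ap1g1, lower. An unadjusted p under 0.05 was reached by 1219 genes (9.29%) in the duodenum and 770 (5.87%) in the colon. With 4 against 4 the exact permutation test, two-sided throughout, cannot go below p = 0.0286, so it is given for single genes beside limma's adjusted p over all genes.

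**Figure D1:**
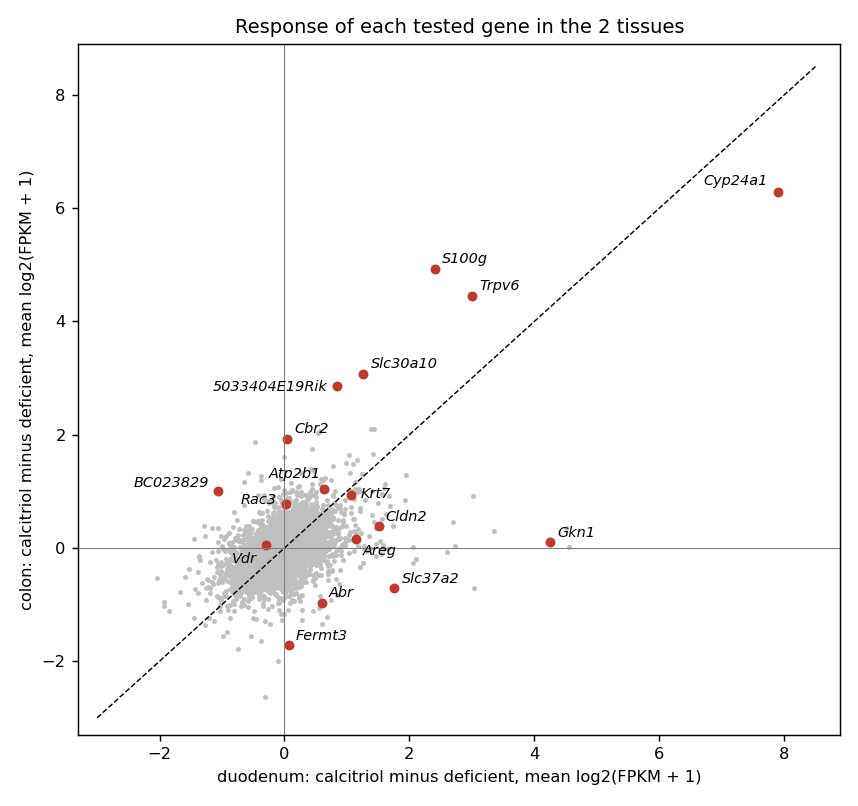
Difference between calcitriol-treated and deficient mice in the duodenum (x axis) and in the colon (y axis), as mean log2(FPKM + 1), for 13115 genes (grey) and named genes (red). The dashed line marks equal differences: S100g, Trpv6, Slc30a10, 5033404E19Rik and Cbr2 lie above it, and Slc37a2, Areg, Cldn2 and Cyp24a1 below it.

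Slc37a2, which encodes a sugar-phosphate exchanger of the endoplasmic reticulum, had the smallest p of all genes. In the duodenum it stood at 130.3, 72.5, 37.0 and 129.96 FPKM in calcitriol 1, 3xD5711, 3xD5720 and 3xD5734, and at 42.9, 30.6, 42.4 and 5.10 FPKM in deficient minusD5718, 1, 2 and 3. In the colon it stood at 33.8, 28.5, 8.12 and 39.0 FPKM in the treated and 74.6, 46.6, 45.7 and 15.1 FPKM in the deficient libraries. The groups overlapped in each tissue, but the order of the tissues was reversed: every treated number had more Slc37a2 in the duodenum and every deficient number more in the colon. The matched differences were 1.92, 1.31, 2.06 and 1.71 under calcitriol, and -0.78, -0.59, -0.11 and -1.397 in deficiency. The contrast was 2.47 ± 0.28 (SE; limma adjusted p = 0.121; exact permutation p = 0.0286, n = 4 and 4). Serial numbers alone gave 2.62, 4-digit numbers alone 2.48, and leaving out any single number 2.25 to 2.67. It is made of a duodenal difference of 1.76 ± 0.67 and a colonic one of -0.71 ± 0.57, neither of which passed alone (limma adjusted p = 0.52 and 0.904).

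S100g stood on the opposite side. This gene of calbindin-D9k was listed in the duodenum at 11457, 10419.6, 3146 and 11508 FPKM under calcitriol and at 3873, 1271, 3070.3 and 359.6 FPKM in deficiency, in the order of numbers used above. In the colon it was listed at 5542, 4329, 1898 and 4367 FPKM against 131.5, 198.2, 393.9 and 21.2 FPKM. Every pair had more S100g in the duodenum, and the gap was narrower under calcitriol, at 1.05, 1.27, 0.73 and 1.398 against 4.87, 2.67, 2.96 and 4.02 on the log2 scale. The groups of matched differences did not overlap, and the contrast was -2.52 ± 0.45 (limma adjusted p = 0.912; exact permutation p = 0.0286; -2.17 serial, -3.74 4-digit). In ratios of geometric means, treated mice had 30.5-fold more in the colon and 5.31-fold more in the duodenum, both on FPKM + 1. The direction depends on the scale. In plain FPKM the duodenal difference was the larger, 6989 against 3848, a contrast of 3141 FPKM (exact permutation p = 0.0857), an alternative chosen after the data were seen.

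Slc30a10, which encodes a manganese exporter, behaved like S100g on the log scale. Its duodenal levels were 112.2, 87.7, 91.5 and 101.8 FPKM under calcitriol and 62.5, 51.7, 55.9 and 14.1 FPKM in deficiency. The colonic levels were 42.8, 66.5, 81.7 and 155.9 FPKM against 10.97, 8.74, 18.4 and 2.31 FPKM. The groups were apart in both tissues, and calcitriol 3xD5734 was the single library number with more Slc30a10 in the colon than in the duodenum. The matched differences were 1.37, 0.40, 0.16 and -0.61 against 2.41, 2.44, 1.55 and 2.19. The contrast was -1.82 ± 0.39 (limma adjusted p = 0.9995; exact permutation p = 0.0286; -0.69 serial, -2.43 4-digit). In plain FPKM it was -24.4 (exact permutation p = 0.429).

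Trpv6, the apical calcium channel, was higher in the colon than in the duodenum in 4 of 4 treated numbers. It stood at 5.10, 13.5, 9.72 and 62.5 FPKM in the treated duodenum and at 5.01, 0.147, 1.02 and 0.0479 FPKM in the deficient one. In the colon it stood at 57.2, 69.5, 35.8 and 111.0 FPKM against 1.22, 4.83, 4.37 and 0.0461 FPKM. The groups were apart in both tissues, in the duodenum by a narrow margin (5.10 against 5.01 FPKM), with differences of 3.00 ± 0.77 in the duodenum and 4.46 ± 0.56 in the colon. The matched differences overlapped: deficient 1 (-2.35) and deficient 2 (-1.41) lay among the treated numbers (-3.25 to -0.82), while deficient 3 stood at 0.00 and deficient minusD5718 at 1.43. The contrast was -1.45 ± 0.80 (limma adjusted p = 0.9995; exact permutation p = 0.2; -2.003 serial, -3.06 4-digit), with a 95% interval of -3.26 to 0.36. In plain FPKM it was -44.6 (exact permutation p = 0.0286). Trpv5, its renal relative, lay under the filter, with 0 to 3 recovered reads in any library.

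Cyp24a1, which encodes the hormone's degrading enzyme, was the 1 panel gene that passed in a single tissue. It rose in the duodenum by 7.91 ± 0.60 on the log2(FPKM + 1) scale (limma adjusted p = 0.00389), from 0.00846 to 0.418 FPKM in deficiency to 64.9 to 640.5 FPKM. In the treated colon it stood at 2.67, 107.7, 369.7 and 276.5 FPKM, and at most at 0.0814 FPKM in the deficient one. Calcitriol 1 was thus low in the colon while its duodenal level was 312.9 FPKM. That number's matched difference was 6.42, and those of calcitriol 3xD5711, 3xD5720 and 3xD5734 were -0.72, -0.01 and 1.21. The contrast was 1.63 ± 1.33 (limma adjusted p = 0.9995; exact permutation p = 0.457; 95% interval -1.38 to 4.63). Without calcitriol 1 it was 0.06 and the colonic difference was 7.76 (limma adjusted p = 0.000711), so 1 library sets both values. Within the schemes it was 6.45 serial and -0.32 4-digit.

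Vdr, the receptor gene, differed little. It stood at 76.6 to 108.5 FPKM in the treated and 66.7 to 152.7 FPKM in the deficient duodenum, and at 100.9 to 139.4 against 80.2 to 141.5 FPKM in the colon. The contrast was -0.35 ± 0.15 (limma adjusted p = 0.9995; exact permutation p = 0.0857; 95% interval -0.69 to -0.01; -0.11 serial, -0.55 4-digit).

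**Figure D2:**
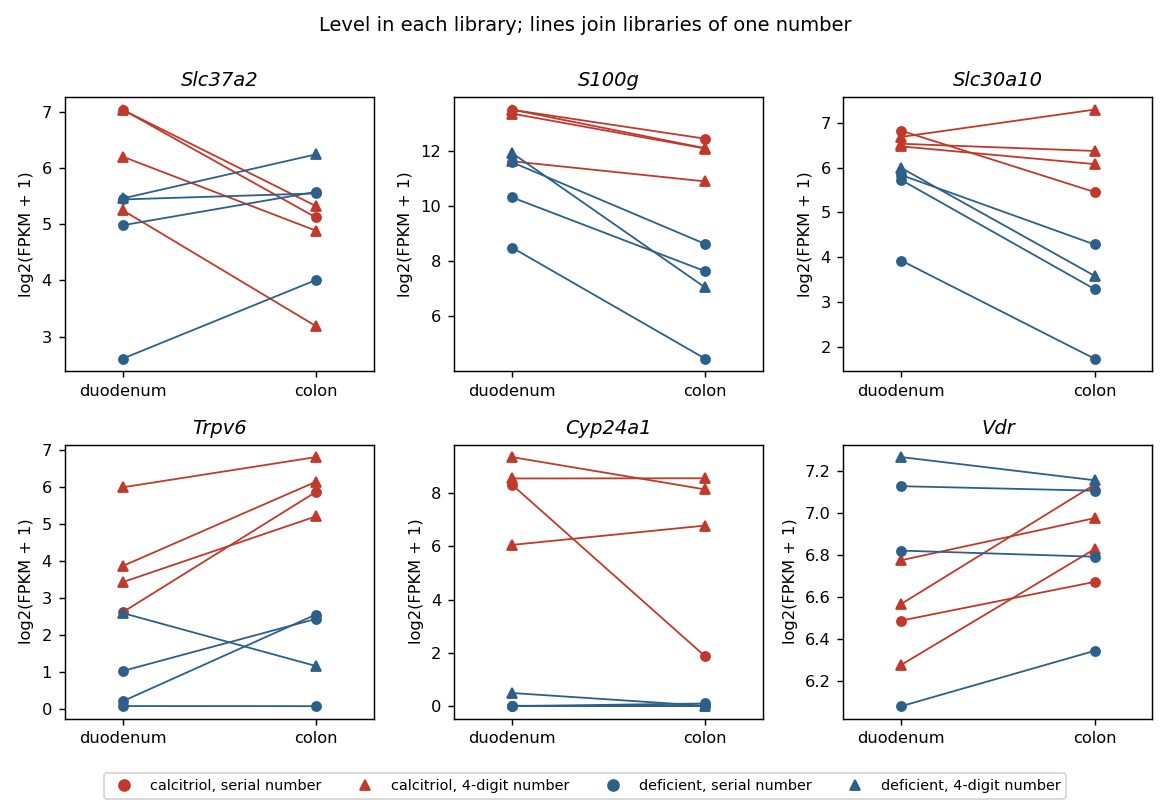
Level of 6 genes in each library as log2(FPKM + 1), duodenum left and colon right, with a line joining the libraries of each number. Calcitriol is red and deficiency blue, with circles for serial and triangles for 4-digit numbers: the lines of Slc37a2 fall towards the colon in 4 of 4 treated numbers and climb in 4 of 4 deficient ones.

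The 250 bases before the start of Slc37a2, S100g and Slc30a10 are printed because these are the panel genes whose matched differences did not overlap. They come from RefSeq promoters of GRCm38.p6, in which 4 of the 5 tested panel genes have an entry (Cyp24a1 is named only). Each reads 5′ to 3′ on the gene's strand, and capitals mark the core motif of nuclear receptor response elements (AGGTCA, or GGGTCA, or AGTTCA, or GGTTCA), searched on both strands.
Slc37a2, chr9:37255739-37255988, minus strand: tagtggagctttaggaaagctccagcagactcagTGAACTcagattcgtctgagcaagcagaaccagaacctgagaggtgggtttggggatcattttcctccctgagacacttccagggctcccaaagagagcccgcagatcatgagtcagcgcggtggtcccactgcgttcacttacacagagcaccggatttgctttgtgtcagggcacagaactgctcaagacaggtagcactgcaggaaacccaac
S100g, chrX:162964600-162964849, minus strand: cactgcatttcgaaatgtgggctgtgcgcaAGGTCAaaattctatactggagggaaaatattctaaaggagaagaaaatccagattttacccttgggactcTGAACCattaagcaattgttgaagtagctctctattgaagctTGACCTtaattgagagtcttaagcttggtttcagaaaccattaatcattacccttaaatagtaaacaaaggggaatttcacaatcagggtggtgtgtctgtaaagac
Slc30a10, chr1:185454598-185454847, plus strand: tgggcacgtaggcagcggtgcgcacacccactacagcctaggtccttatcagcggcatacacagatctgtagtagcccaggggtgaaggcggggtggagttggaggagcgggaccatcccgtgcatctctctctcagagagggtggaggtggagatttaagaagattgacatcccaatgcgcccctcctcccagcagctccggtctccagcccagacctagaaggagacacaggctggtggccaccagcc
The S100g window held 3 matches, which start 220, 149 and 107 bases before the gene's start, that of Slc37a2 held 1, at 216 bases, and that of Slc30a10 held 0. No match overlapped another, and no window held a direct repeat spaced by 3 bases. Of the 32851 promoters in the table, 38.6% held at least 1 match in the same 250 bases, 1.84% at least 3, and 0.0396% a direct repeat spaced by 3. The window of Trpv6 held 2 matches, at 191 and 165 bases. A match is a description of the letters, and response elements can lie far outside such a window.

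On NCBIM37, the assembly of mm9, Slc37a2 spans 37036734 to 37063323 of chromosome 9, S100g 159399924 to 159402531 of the X chromosome and Slc30a10 187278727 to 187292641 of chromosome 1. Trpv6 spans 41570620 to 41586404 of chromosome 6.

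Genes of the calcium route had contrasts of both signs. Of 19 listed calcium transport genes 10 were tested, S100g and Trpv6 above among them. Their median contrast was -0.05 (0.15 serial, -0.05 4-digit) against 0.02 over all tested genes. At an unadjusted p under 0.05, 2 had a positive contrast and 2 a negative one, where 1.67% and 1.59% of all genes did. The negative ones were S100g and Cldn15, and 0 passed over all genes. Cldn2, a tight junction gene whose claudin forms a cation pore, had a contrast of 1.13 ± 0.31 (limma adjusted p = 0.9995; exact permutation p = 0.0571; 1.32 serial, 0.67 4-digit). It stood at 42.8, 62.4, 199.1 and 75.4 FPKM in the treated and 21.9 to 39.2 FPKM in the deficient duodenum, apart from each other, while in the colon 57.6 to 170.4 FPKM overlapped with 60.3 to 112.5. Cldn15, another cation-permeable claudin, leaned the other way, at -0.61 ± 0.17 (limma adjusted p = 0.9995; exact permutation p = 0.0286; -0.69 serial, -0.35 4-digit). Its groups were apart in the colon, at 95.2 to 139.8 FPKM against 81.1 to 94.4, and overlapped in the duodenum, at 326.6 to 485.4 against 359.3 to 479.1. Orai1 and Atp2b1 were singled out after their values were seen. Orai1, the pore of store-operated calcium entry, was at 20.4 to 27.7 FPKM in the treated and 12.8 to 16.2 FPKM in the deficient duodenum, and its contrast was 0.49 ± 0.19 (limma adjusted p = 0.9995; 0.17 serial, 0.58 4-digit).

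Atp2b1, which encodes the calcium pump PMCA1, was at 103.0, 119.2, 108.4 and 126.8 FPKM in the treated and 67.8, 52.2, 53.9 and 47.7 FPKM in the deficient colon. The groups were apart by 1.04 ± 0.13 (limma adjusted p = 0.123). In the duodenum they overlapped, at 68.9 to 151.2 FPKM against 42.1 to 113.9. The contrast of Atp2b1 was -0.40 ± 0.28 (limma adjusted p = 0.9995; exact permutation p = 0.257; 0.44 serial, -1.10 4-digit). Channel, carrier and pump therefore each had a larger log difference in the colon over all 8 numbers, of which only that of the carrier S100g had matched differences that did not overlap.

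Among 22 genes of zinc and manganese transport, all tested, Slc30a10 was the 1 gene at an unadjusted p under 0.05, beside 3.26% of all genes. The list's median contrast was 0.07 (0.13 serial, -0.01 4-digit). Slc30a1, the plasma membrane zinc exporter, was at 11.2 to 13.3 FPKM in the treated and 8.04 to 9.49 FPKM in the deficient duodenum, with a contrast of 0.43 ± 0.23 (limma adjusted p = 0.9995; 0.49 serial, 0.86 4-digit). Of 15 tested genes of the receptor, its partners and vitamin D metabolism, Vdr was the 1 gene at an unadjusted p under 0.05. The share over all genes was again 3.26%, and the list's median contrast was 0.06 (0.39 serial, -0.22 4-digit). The coactivator gene Ncoa2 (-0.51 ± 0.32; 0.39 serial, -0.65 4-digit) and the retinoid X receptor gene Rxrb (0.37 ± 0.24; 0.73 serial, -0.01 4-digit) came next by p.

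Of 25 tested genes in a list of other vitamin D responders, 3 had a positive and 3 a negative contrast at an unadjusted p under 0.05, where 1.67% and 1.59% of all genes did, and 0 passed over all genes. The list was drawn with results of these samples known, so its counts are no independent evidence. The 3 negative ones were Cbr2, a carbonyl reductase gene, Rac3 and 5033404E19Rik. Cbr2 stood at 124.0, 81.5, 46.6 and 43.5 FPKM in the treated and 15.5, 15.5, 22.6 and 15.2 FPKM in the deficient colon, and at 0.245 to 1.33 FPKM in the duodenum of either group. Its contrast was -1.89 ± 0.39 (limma adjusted p = 0.9995; exact permutation p = 0.0286; -3.06 serial, -1.54 4-digit). Rac3 was at 11.3, 9.52, 9.73 and 8.92 FPKM against 5.76, 4.63, 5.89 and 4.97 FPKM in the colon, and at 1.34 to 2.01 FPKM in the duodenum. Its contrast was -0.76 ± 0.17 (limma adjusted p = 0.9995; exact permutation p = 0.0286; -1.07 serial, -0.71 4-digit). Both differences thus lie in the colon. The genes are neighbours on chromosome 11 of NCBIM37, Rac3 at 120582784 to 120585283 on the plus strand and Cbr2 at 120590803 to 120593428 on the minus strand, 5519 bases apart.

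5033404E19Rik shows how the scale acts on a gene that is rare in the duodenum. It stood at 0.368 to 1.19 FPKM in the treated and 0 to 0.121 FPKM in the deficient duodenum, and at 45.7 to 70.4 against 1.61 to 13.3 FPKM in the colon. The contrast was -2.03 ± 0.50 with a pseudocount of 1 and 0.73 by voom on recovered reads, so its direction is not settled. The 3 positive ones were Areg, Thbd and Abca1. Areg, a ligand of the epidermal growth factor receptor, was at 19.5, 14.4, 22.4 and 24.6 FPKM in the treated and 11.5, 7.03, 6.01 and 10.3 FPKM in the deficient duodenum, and its groups overlapped in the colon. Its contrast was 0.98 ± 0.23 (limma adjusted p = 0.9995; exact permutation p = 0.0286; 0.44 serial, 1.61 4-digit). Thbd, the thrombomodulin gene (0.50 ± 0.15), and Abca1, a cholesterol exporter gene (0.72 ± 0.26), are named after their values were seen.

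The 10 genes with the smallest p in each direction all had matched differences that did not overlap, against 1.94% of all tested genes. They were chosen by the p of these same differences, so the lack of overlap follows largely from the choice. Their exact permutation p is no separate support. Beside Slc37a2 the positive ones were Fermt3, 1700021C14Rik, Fos, Fam134b, Areg, Sgk1, Dcbld2, Abr and Stx2. Fos, the immediate early transcription factor gene, was at 78.8, 85.0, 63.0 and 102.2 FPKM in the treated and 69.0, 40.5, 68.9 and 62.5 FPKM in the deficient duodenum. In the colon the order turned, at 44.8, 26.7, 22.6 and 34.8 FPKM against 76.8, 28.8, 47.8 and 44.9. The groups of Fos overlapped in each tissue and its contrast was 1.02 ± 0.23 (limma adjusted p = 0.9995; 0.31 serial, 1.69 4-digit).

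Sgk1, a kinase gene that responds to glucocorticoids and promotes sodium uptake, varied more between numbers than between tissues. It ran from 64.0 to 468.2 FPKM in the treated and 38.2 to 211.4 FPKM in the deficient duodenum, and from 50.2 to 277.8 against 34.8 to 188.5 FPKM in the colon. High numbers were high in both tissues, so that the matched differences spread less, 0.34 to 0.90 against -0.34 to 0.16, and the contrast was 0.70 ± 0.17 (limma adjusted p = 0.9995; 0.44 serial, 0.61 4-digit). Fam134b, a receptor for autophagy of the endoplasmic reticulum, was higher in the colon in 8 of 8 numbers, with matched differences of -1.396 to -0.02 under calcitriol and -2.47 to -1.93 in deficiency. Its contrast was 1.26 ± 0.29 (2.09 serial, 0.98 4-digit).

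Fermt3, the kindlin gene of blood cells, was listed in the colon at 0.244, 0, 0 and 0 FPKM under calcitriol and at 3.00, 2.20, 3.63 and 1.46 FPKM in deficiency. In the duodenum both groups were at 0.959 to 2.82 FPKM. The contrast was 1.78 ± 0.27 (limma adjusted p = 0.53; 1.34 serial, 2.46 4-digit). BC023829, with the smallest p of the negative ones, was listed at 0, 0.0816, 0 and 0 FPKM in the treated and 0.944 to 1.37 FPKM in the deficient duodenum, and at 0.779 to 3.61 against 0 to 1.24 FPKM in the colon. Its contrast was -2.08 ± 0.32 (limma adjusted p = 0.53; -2.78 serial, -2.16 4-digit). The duodenal difference of BC023829 alone was -1.06 and passed (limma adjusted p = 0.00389). Such steps between 0 and a few FPKM also occur within a group: 117 genes were listed at 0 in a library and at 5 FPKM or more in another of the same tissue and group, and 95 of them were tested. In 8 of the 20 genes with the smallest p, no group mean reached 5 FPKM in either tissue.

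Beside BC023829, S100g, Slc30a10, Cbr2 and Rac3, the negative ones were Gtpbp8, Bglap, Tubgcp5, 6230427J02Rik and Tnfaip8l3. Gtpbp8, a GTP-binding protein gene, had matched differences of -1.04 to -0.88 under calcitriol and -0.40 to 0.08 in deficiency. It was at 9.88 to 13.4 FPKM in the treated and 6.05 to 7.83 FPKM in the deficient colon, and its contrast was -0.80 ± 0.14 (limma adjusted p = 0.788; -0.64 serial, -1.07 4-digit). Bglap, which encodes osteocalcin, was at 8.09, 4.97, 2.70 and 2.13 FPKM against 0.958, 2.04, 3.24 and 1.28 FPKM in the colon. These colonic groups overlapped and rest on 5 to 66 recovered reads per library. Bglap was at 0 to 1.15 FPKM in the duodenum, and its contrast was -1.18 ± 0.23 (limma adjusted p = 0.9995; -1.16 serial, -1.34 4-digit). Tnfaip8l3, a phosphoinositide transfer protein gene, differed in the duodenum, at 2.10 to 4.67 against 6.66 to 9.88 FPKM, with a contrast of -0.98 ± 0.24 (-0.74 serial, -1.49 4-digit).

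**Figure D3:**
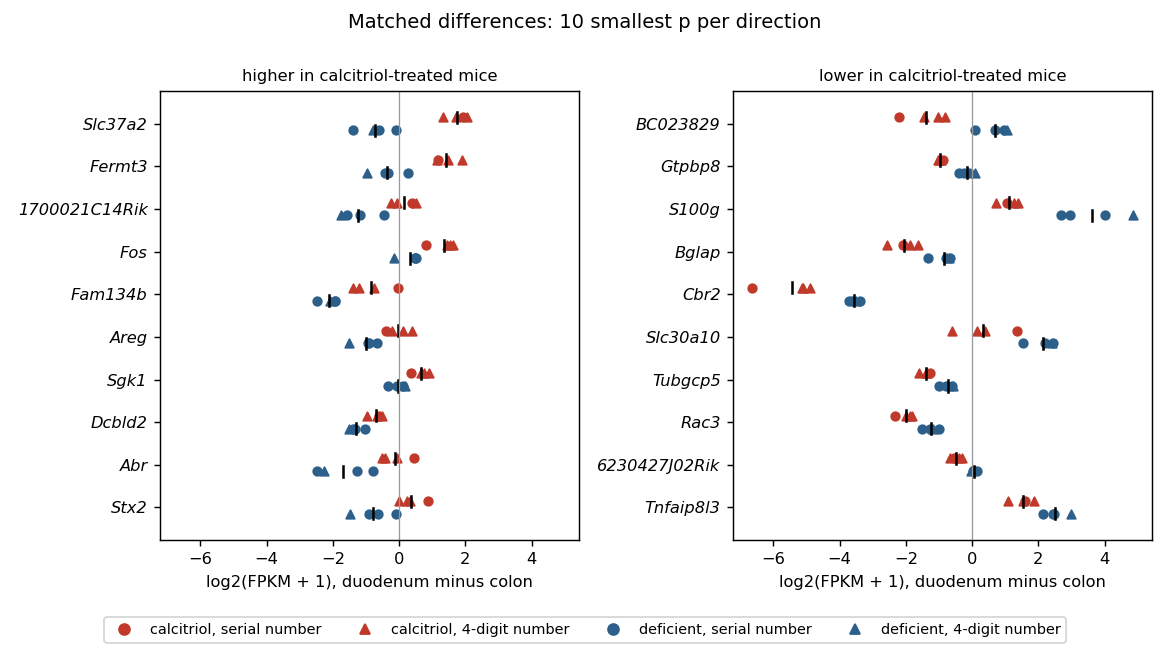
Matched differences in log2(FPKM + 1), duodenum minus colon, of the 10 genes with the smallest p in each direction. Each point is a library number, with calcitriol in red above deficiency in blue, circles for serial and triangles for 4-digit numbers, and a black bar for the group mean. The 2 groups of points do not overlap in any of the 20 genes, which were chosen by the p of these same differences.

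Genes apart alike in both tissues form the counterpart. The groups were apart in 558 genes in the duodenum (4.25%), 245 higher (1.87%) and 313 lower (2.39%), and in 586 in the colon (4.47%), 288 higher (2.2%) and 298 lower (2.27%). In 74 genes (0.564%) the treated libraries lay all on the same side of the deficient ones in the duodenum and in the colon, 37 above (0.282%) and 37 below (0.282%). A single gene was apart in opposite directions (0.00762%): Tmeff1, a transmembrane protein gene, at 1.22 to 1.75 against 0 to 1.22 FPKM in the duodenum and at 0 to 0.845 against 1.28 to 2.12 FPKM in the colon. The contrasts of the 37 higher genes ran from -2.03 (5033404E19Rik) to 1.63 (Cyp24a1) with a median of 0.02, and those of the 37 lower genes from -0.41 to 0.38 with a median of 0.04. At an unadjusted p under 0.05 were 2 of the 37 higher ones, 5033404E19Rik and Slc30a10, and 0 of the 37 lower ones, beside 3.26% of all genes. These genes were chosen for lying on the same side in both tissues, so their medians and counts are no test of a shared response. Krt7, a keratin of simple epithelia, stood at 48.2, 56.6, 55.7 and 74.0 FPKM in the treated and 23.9 to 31.6 FPKM in the deficient duodenum, and at 188.0 to 284.3 against 93.2 to 123.5 FPKM in the colon. The tissue differences were 1.07 ± 0.15 and 0.94 ± 0.16, and the contrast of Krt7 was 0.13 ± 0.27 with a 95% interval of -0.48 to 0.73 (-0.40 serial, -0.10 4-digit, both opposite in sign to the pooled value).

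Lrrc26, which encodes a subunit of secretory-cell potassium channels, was at 20.8 to 45.6 against 12.1 to 15.6 FPKM in the duodenum and at 101.4 to 129.2 against 39.3 to 71.6 FPKM in the colon. Its contrast was 0.09 ± 0.32, with a 95% interval of -0.63 to 0.81 (-0.74 serial, 0.55 4-digit). Ifrd1, a transcriptional coregulator gene, was at 85.9 to 107.8 against 43.0 to 66.1 FPKM in the duodenum and at 45.4 to 67.4 against 29.5 to 37.4 FPKM in the colon. Its contrast was 0.28 ± 0.18, with a 95% interval of -0.14 to 0.69 (0.70 serial, -0.06 4-digit). Among genes lower in both tissues, Zbtb7b, a zinc finger repressor gene, was at 24.9 to 34.5 against 37.6 to 47.6 FPKM and at 18.4 to 37.8 against 45.1 to 56.5 FPKM, and its contrast was 0.28 ± 0.28 (1.02 serial, 0.07 4-digit). Clip2 (0.10 ± 0.17), Ppp1r9b (0.07 ± 0.13), Adam1a (0.12 ± 0.12) and 4933407H18Rik (0.00 ± 0.19) lay closer to 0. The intervals of Krt7, Lrrc26 and Ifrd1 include 0 but do not exclude moderate differences between the tissues.

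Gene lists of cell types and functions were described by their counts, without a test of the list. In a bulk sample, fewer cells of a type and less RNA per cell cannot be told apart. Of 28 tested interferon response genes, 27 had a positive contrast, where 54.1% of all genes did, with a median of 0.43. The list's median difference between treated and deficient mice was below 0 in both tissues, -0.15 in the duodenum and -0.67 in the colon. Over all tested genes these medians were 0.01 and -0.01. In the duodenum 6 of the 28 were lower in treated mice at an unadjusted p under 0.05, beside 5.42% of all genes, and in the colon 3, beside 2.94%. The contrast itself reached an unadjusted p under 0.05 in 1 of the 28, beside 3.26% of all genes. This was Irf7, the regulator of type I interferon genes, at 26.5 to 58.1 against 31.8 to 49.9 FPKM in the duodenum and 19.1 to 39.0 against 37.6 to 64.7 FPKM in the colon, with a contrast of 0.90 ± 0.32 (limma adjusted p = 0.9995; -0.07 serial, 1.06 4-digit). The list's summed level in the colon was 597.0 to 1053 FPKM in serial and 249.3 to 460.3 FPKM in 4-digit libraries, and deficient minusD5718 (249.3) lay at the bottom. The median contrast was 0.36 among serial and -0.72 among 4-digit numbers, opposite in sign.

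T and NK cell markers leaned the other way, with 16 of 18 tested members below 0 (45.9% of all genes) and a median contrast of -0.35 (-0.42 serial, -0.45 4-digit). In the duodenum 8 of the 18 were lower in treated mice at an unadjusted p under 0.05, beside 5.42% of all genes, and in the colon 3, beside 2.94%. Cd2, an adhesion receptor gene of T cells, was at 0.198 to 1.09 against 1.31 to 1.95 FPKM in the duodenum and at 0.849 to 2.39 against 1.54 to 2.11 FPKM in the colon, with a contrast of -0.40 ± 0.14 (limma adjusted p = 0.9995; -0.66 serial, -0.10 4-digit). Of 13 B and plasma cell markers 12 lay below 0, with a median of -0.43 (0.04 serial, -0.54 4-digit). At an unadjusted p under 0.05, 4 of them had a negative contrast, as did 2 of the 18 T and NK cell markers. Of all genes 1.59% did. The B and plasma cell sums parted by naming scheme, 4-digit against serial. They were 191.7 to 330.2 against 366.5 to 1555.6 FPKM in the duodenum and 211.1 to 298.5 against 386.8 to 649.6 FPKM in the colon. The summed level of T and NK cell markers was 167.4 to 431.5 FPKM in the treated and 314.9 to 923.7 FPKM in the deficient duodenum. In the colon it was 26.8 to 106.8 against 40.4 to 93.4. By naming scheme the colonic sums did not overlap, at 26.8 to 49.2 FPKM in 4-digit and 61.3 to 106.8 FPKM in serial libraries. The duodenal ones were 167.4 to 319.1 FPKM in 4-digit and 314.9 to 923.7 FPKM in serial libraries. Scheme and treatment were not separated for these sums.

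Proliferation genes had 24 of 26 contrasts above 0 (54.1% of all genes), with a median of 0.22 (0.34 serial, -0.10 4-digit). Rrm2, a ribonucleotide reductase subunit gene, was at 18.4, 32.6, 86.6 and 31.5 FPKM in the treated and 15.3 to 23.1 FPKM in the deficient duodenum, and its contrast was 1.15 ± 0.45 (0.36 serial, 1.19 4-digit). Plk1, a mitotic kinase gene, had a contrast of 0.41 ± 0.15 (0.28 serial, 0.22 4-digit). Among stem cell and Wnt target genes the median was 0.11 (0.21 serial, 0.10 4-digit), and 2 of 20 had a positive contrast at an unadjusted p under 0.05, beside 1.67% of all genes: Sox9 (0.71 ± 0.24; 0.31 serial, 0.48 4-digit), a transcription factor gene of the crypt, and the ephrin receptor gene Ephb3 (0.56 ± 0.20; 0.11 serial, 0.64 4-digit). The limma adjusted p of each of these genes was 0.9995.

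Lists of absorptive function were mixed. Brush border genes had 18 of 23 contrasts below 0, where 45.9% of all genes did. Their median was -0.14, with parts opposite in sign (0.18 serial, -0.33 4-digit). Slc7a9, a cystine transporter gene, was the 1 member at an unadjusted p under 0.05, beside 3.26% of all genes. It was at 130.1 to 151.6 against 144.0 to 160.3 FPKM in the duodenum and at 15.8, 20.4, 52.3 and 26.8 against 12.2 to 15.2 FPKM in the colon, so the groups were apart in the colon, and the contrast was -0.91 ± 0.32 (-0.30 serial, -0.997 4-digit). Drug metabolism genes had 16 of 21 below 0 (median -0.33; 0.43 serial, -0.31 4-digit), with the carboxylesterase gene Ces1e at -0.58 ± 0.17 (-0.60 serial, -0.78 4-digit). Fat absorption genes had 10 of 19 below 0 (median 0.00; 0.35 serial, -0.02 4-digit). Of 9 tested bile acid genes, 1 had a positive and 1 a negative contrast at an unadjusted p under 0.05. The shares over all genes were 1.67% and 1.59%. Fabp6, the ileal bile acid-binding protein gene, had a contrast of 2.10 ± 0.66 (0.84 serial, 1.86 4-digit), with 280.9 FPKM in the duodenum of calcitriol 3xD5711 and 0.926 to 89.4 FPKM in the other duodenal libraries. Ostb, a subunit gene of the basolateral bile acid exporter, leaned the other way, at -0.49 ± 0.17 (-0.74 serial, -0.03 4-digit). The limma adjusted p was 0.9995 for each of these genes.

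**Figure D4:**
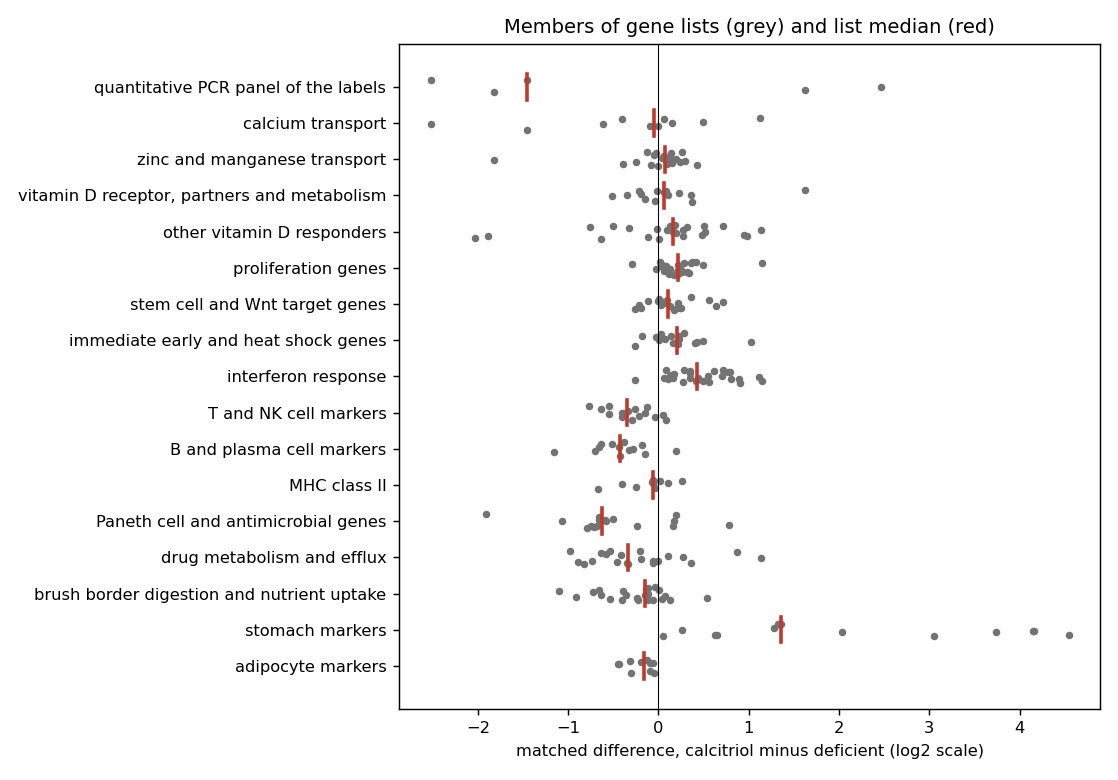
Contrast of each tested member (grey points, spread vertically for legibility) and the list median (red bar) for 17 gene lists. The x axis is the matched difference, calcitriol minus deficient, in log2(FPKM + 1). Members of the interferon list lie above 0 in 27 of 28 cases, and those of the T and NK cell list below 0 in 16 of 18.

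Markers of tissue outside the intestinal wall differed between libraries, each list in its own way. All 13 tested stomach markers had a positive contrast, where 54.1% of all genes did, with a median of 1.36. At an unadjusted p under 0.05 were 0 of them, beside 3.26% of all genes. Serial numbers alone gave a median of 0.01 and 4-digit numbers alone one of -0.53. Gkn1, a gastric mucosal gene, was listed in the duodenum at 0 FPKM in calcitriol 1, at 321.5 to 560.0 FPKM in the 4-digit numbers and at 0 to 0.0282 FPKM in deficient 1, 2 and 3. Exocrine pancreas markers summed to 9692 to 76384 FPKM in the duodenum and to 5632 to 12849 FPKM in 7 colonic libraries, with 49594 in that of calcitriol 3xD5720. That list includes Zg16, which is also a goblet cell gene of the intestinal wall, with 42317 to 101038 recovered reads in the colon. The colonic sums are therefore not a measure of pancreatic tissue alone. Of 10 adipocyte markers 0 had a contrast above 0 (median -0.16; -0.56 serial, 0.02 4-digit). The groups of their sums did not overlap in the colon. Their summed level was 161.7 to 219.3 against 88.9 to 163.9 FPKM in the duodenum and 324.3 to 449.7 against 174.2 to 319.5 FPKM in the colon. The part of any of these in the contrasts of Slc37a2, S100g, Slc30a10 and the lists above was not tested.

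**Figure D5:**
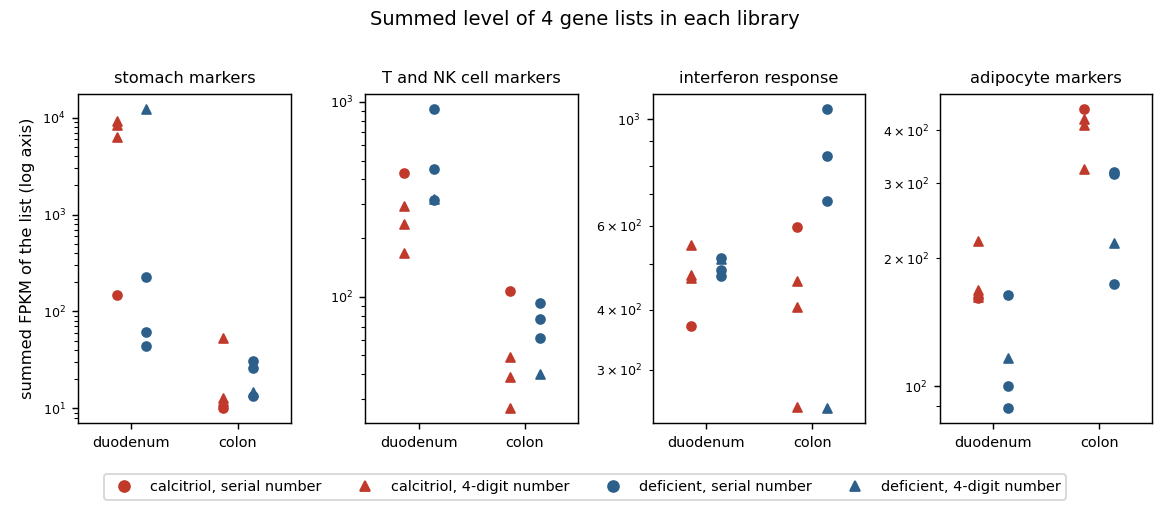
Summed FPKM of 4 gene lists in each library (log axes), duodenum and colon, with calcitriol in red and deficiency in blue, circles for serial and triangles for 4-digit numbers. Stomach markers part the duodenal libraries by naming scheme, at 6287 to 12427 against 43.7 to 226.6 FPKM, and the 4-digit deficient library has the lowest interferon sum in the colon (249.3).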

How the data were processed

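Poly(A) RNA-seq (NEBNext Ultra II libraries) was measured in 16 duodenal and colonic samples. The FPKM values were used as deposited by the authors, in 1 table per tissue. Of tools and builds, kallisto 0.45.0, DESeq 1.14.0, DESeq2 and mm9 stand without roles in the submitters' processing notes, and the labels' extraction text names CLC Genomics Workbench. Which of these made the FPKM values is not given. Members, lists and tests were chosen with earlier results of these data known. Genes of at least 1 FPKM in 3 or more columns of either table were kept, and log2(FPKM + 1) differences between same-numbered libraries were compared with limma 3.58.1 (R 4.3.3, Benjamini-Hochberg adjustment), checked on simulated data. Single genes had an exact permutation test over 70 splits. Named genes were the panel, the 10 smallest p in each direction, up to 3 members of each list by p, and up to 5 genes apart in both tissues per direction. Genes stepping from 0 to 5 FPKM within a group are given as listed values. The numbers are a library name, not a stated mouse. Whole reads were recovered for 83.6% of duodenal and 83.4% of colonic genes within 0.0001. A deposited ileal table was identical to the duodenal one in 171528 of 171528 values and was not used. The authors' 7-library duodenal table equalled the 8-library one up to a constant factor per library (largest relative spread 5.6e-14). Between the 7-library duodenal and ileal tables, 0 values above 0 were equal.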

Additional observations from a re-analysis of the deposited data

Results flagged for a closer look

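Of 120 groups of 4 matched differences in 60 named genes, 7 held a library number far from the others by Dixon's criterion, which chance meets in about 1 group in 20. For Fos, deficient minusD5718 stood at -0.15 and the other deficient numbers at 0.47 to 0.52. For Cbr2, calcitriol 1 stood at -6.63 and the other treated numbers at -5.15 to -4.90. For Lrrc26, deficient 3 stood at -1.28 beside -2.13 to -2.11. For Slc30a1, calcitriol 3xD5734 stood at -0.82 beside -0.18 to -0.05. For Gcg, the proglucagon gene, deficient minusD5718 stood at -1.71 beside -2.51 to -2.41. For Gkn1, calcitriol 1 stood at 0.0 beside 8.31 to 9.13, and deficient minusD5718 at 9.13 beside 0.00 to 0.04. In Gkn1 both are the number whose naming scheme differs from the rest of its group.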

How the results depend on the processing

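The matched test called 0 genes in each of 24 alternatives. Leaving out single numbers gave 3 to 8 calls in the duodenum (3 with all) and 0 to 2 in the colon (0 with all), and the naming scheme as a term gave 2 in the colon, Krt7 among them. With the replicate block replaced by no replicate block, 0 genes were called and 246 had an unadjusted p under 0.05. Deviations of same-numbered libraries correlated with r of -0.05 to 0.43, over 0.1 in 7 of 8, and the own number gave the highest r of its group in 5 of 8. The higher of Xist and Ddx3y was the same in both tissues in 8 of 8 numbers, with more Xist in 2 treated and 1 deficient. The pairing was made by the numbers, and that a number marks 1 mouse is not stated. The scheme as a term turned Krt7 to -0.25, Lrrc26 to -0.09, 4933407H18Rik to 0.08 and Gkn1 to -0.28. With Xist above Ddx3y as a term 4933407H18Rik was at 0.00, with array weights Ppp1r9b at -0.01, and 4933407H18Rik at 0.05 with the authors' 7-library tables, by voom on reads with the replicate block 5033404E19Rik at 0.73, and untransformed FPKM put S100g at 3141. Without single numbers Krt7 ran from -0.05 to 0.35, Lrrc26 from -0.13 to 0.35, 4933407H18Rik from -0.13 to 0.08, Ppp1r9b from -0.02 to 0.12 and duodenal Fermt3 from -0.09 to 0.23. The cause was not tested. Slc37a2, S100g, Slc30a10 and Trpv6 kept their sign on the log scale in every alternative run, with Slc37a2 at 2.18 to 2.67 and Trpv6 at -2.53 to -0.52. Each group has 4 numbers, and only calcitriol 1 and deficient minusD5718 cross the naming schemes, which limits every contrast.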
